A study of Danio rerio with 6 samples.

Results

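The genes described here are the chemokines cxcl12a and cxcl12b and their receptors cxcr4a and cxcr4b, chosen by name from the deposited table, in which each has 1 row. They are 4 of 29126 named genes. RNA sequencing was done on cell populations of zebrafish with the reporter transgene Tg(fli1:EGFP), whose green fluorescence, driven by fli1a regulatory DNA, marks vessel endothelium, subsets of blood cells, and pharyngeal arch cartilage and mesenchyme. The 6 libraries fall into High-Fli1+, Low-Fli1+ and Fli1- cells, with 2 libraries of each, and all 6 have the transgene. The labels give no age, treatment, sorting gate or strain beyond the transgene. They describe the samples as run in duplicate and do not say whether the replicates came from separate embryos, so the p-values measure only the spread between these libraries, which may be technical.

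Cxcl12, also known as stromal cell-derived factor, is a secreted chemokine of stromal and perivascular cells. It acts through Cxcr4, a receptor coupled to inhibitory G proteins that steers migrating cells, while the atypical receptor Ackr3 takes up Cxcl12 without such signalling and so shapes its gradients. Zebrafish carry duplicates of all these genes. Cxcl12a and Cxcr4b guide the lateral line primordium and the primordial germ cells, and Cxcr4b also acts in neutrophils. Cxcl12b and Cxcr4a are known from the gastrula and from developing arteries.

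Depth cannot be read from FPKM, the unit of all levels here, so no counting error can be given. The reporter's own gene fli1a followed the labels, at 241 and 192 FPKM in High-Fli1+, 66.8 and 52.0 in Low-Fli1+, against 1.04 and 5.55 in Fli1- libraries. Libraries differed in how many genes were listed at 0, with 11054 and 11457 in High-Fli1+, 14082 and 12575 in Low-Fli1+, against 8683 and 8451 in Fli1- libraries. Low-Fli1+ replicate 1 stood apart. Of 4222 genes at 10 FPKM or more in each of the other 5 libraries, 67 were listed at 0 in it, against between 0 and 6 such genes in any other library. Pearson's r of log2(FPKM + 1) across the genes tested was 0.892 between the High-Fli1+ libraries, 0.737 between the Low-Fli1+ libraries and 0.927 between the Fli1- libraries. Low-Fli1+ replicate 2 reached 0.747 and 0.748 with the High-Fli1+ libraries and 0.729 and 0.752 with the Fli1- libraries, so it was no closer to its own replicate. For Low-Fli1+ replicate 1 these values were 0.692 and 0.655, and 0.720 and 0.716. Without this library, every limma call counted below in Low-Fli1+ against Fli1- cells and in High-Fli1+ against Low-Fli1+ cells was lost. The same was true without either High-Fli1+ library, and for High-Fli1+ against Low-Fli1+ cells without either Fli1- library. This loss was therefore not particular to Low-Fli1+ replicate 1. Without Low-Fli1+ replicate 2, genes were still called in both comparisons.

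Transcripts of both ligands were more abundant in High-Fli1+ than in Fli1- libraries, and those of cxcl12a also in Low-Fli1+ than in Fli1- libraries. In these bulk samples, a difference in the number of cells of a type and one in RNA per cell cannot be told apart. Cxcl12a stood at 59.1 and 46.8 FPKM in High-Fli1+, 25.9 and 32.4 FPKM in Low-Fli1+ and 4.61 and 6.28 FPKM in Fli1- libraries. The 3 populations did not overlap, and High-Fli1+ was the highest and Fli1- the lowest. The means were 53.0 ± 8.65 FPKM in High-Fli1+, 29.1 ± 4.61 in Low-Fli1+ and 5.45 ± 1.18 in Fli1- cells (SD, n = 2 each). In High-Fli1+ against Fli1- cells cxcl12a was 8.39-fold higher (log2 fold change 3.07 ± 0.30 (SE), limma adjusted p = 0.00405). In Low-Fli1+ against Fli1- cells it was 4.68-fold higher (log2 fold change 2.23 ± 0.30 (SE), limma adjusted p = 0.0295). Fold changes are on the log2(FPKM + 1) scale throughout, which understates those of low genes. The difference between the reporter-positive populations, a log2 fold change of 0.84 with a 95% interval of 0.10 to 1.58, did not pass the threshold after adjustment (limma adjusted p = 0.162) and was 0.68 (adjusted p = 0.244) when Low-Fli1+ replicate 1 was left out.

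Cxcl12b, the duplicate of cxcl12a, was listed at 25.1 and 19 FPKM in High-Fli1+, 8.90 and 17.0 FPKM in Low-Fli1+ and 0.324 and 2.67 FPKM in Fli1- libraries. The populations again did not overlap, although the distance between the nearest High-Fli1+ and Low-Fli1+ libraries was small. Cxcl12b was 10.4-fold higher in High-Fli1+ than in Fli1- libraries (log2 fold change 3.37 ± 0.62 (SE), limma adjusted p = 0.0194). Low-Fli1+ against Fli1- cells gave a log2 fold change of 2.6 ± 0.62 (SE), which did not pass (limma adjusted p = 0.0862). High-Fli1+ against Low-Fli1+ cells gave 0.78, with a 95% interval of -0.75 to 2.30 (limma adjusted p = 0.492). When Low-Fli1+ replicate 1 was left out these became 3.03 (limma adjusted p = 0.0964) and 0.35 (0.798). Its Fli1- libraries lay 1.47 apart on the log2(FPKM + 1) scale, a wider gap than that of 95.4% of the genes tested in those 2 libraries.

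Each ligand call was lost without at least 1 library. In High-Fli1+ against Fli1- cells, cxcl12a kept its call without either Low-Fli1+ or either Fli1- library and fell just short without High-Fli1+ replicate 1 (log2 fold change 2.90, limma adjusted p = 0.0511) or replicate 2 (3.23, adjusted p = 0.0507). Its call in Low-Fli1+ against Fli1- cells was lost whichever library was left out, with log2 fold changes between 2.04 and 2.42 and limma adjusted p between 0.0526 and 0.101, and also with the Low-Fli1+ and Fli1- libraries alone (adjusted p = 0.104). Cxcl12b lost its call in High-Fli1+ without High-Fli1+ replicate 1 (3.18, limma adjusted p = 0.137), High-Fli1+ replicate 2 (3.57, 0.123), Fli1- replicate 1 (2.64, 0.124) or Fli1- replicate 2 (4.11, 0.0651). The direction held in each of these refits.

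**Figure D1:**
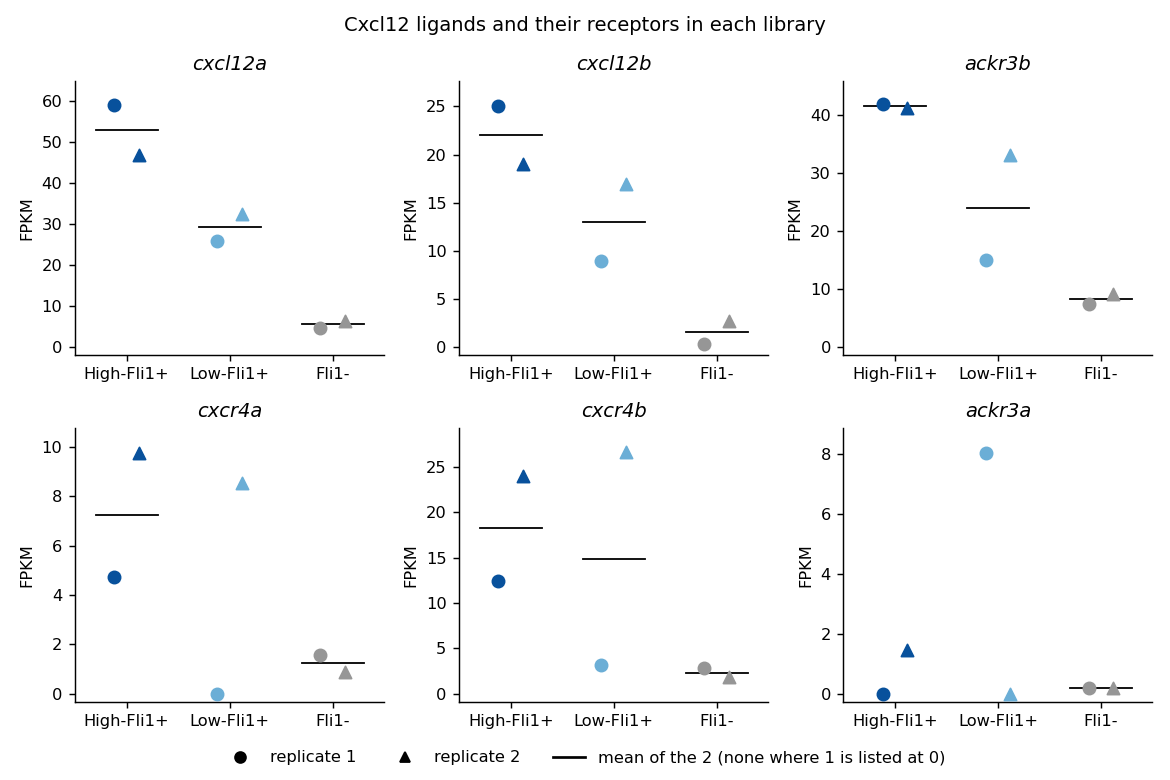
FPKM (y axis, with its own scale in each panel) of cxcl12a, cxcl12b, ackr3b, cxcr4a, cxcr4b and ackr3a in High-Fli1+, Low-Fli1+ and Fli1- libraries; circles are replicate 1, triangles replicate 2, and black lines the mean of the 2 where neither is listed at 0. Cxcl12a stands at 59.1 and 46.8 FPKM in High-Fli1+ and 4.61 and 6.28 FPKM in Fli1- libraries, whereas cxcr4a and cxcr4b lie far apart within Low-Fli1+.

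The receptors had both High-Fli1+ libraries above both Fli1- libraries, but neither passed the test in any comparison. Cxcr4b stood at 12.4 and 24.1 FPKM in High-Fli1+, 3.14 and 26.7 FPKM in Low-Fli1+ and 2.82 and 1.80 FPKM in Fli1- libraries. Its highest value of all 6 was in Low-Fli1+ replicate 2, while Low-Fli1+ replicate 1 was close to the Fli1- libraries. High-Fli1+ against Fli1- cells gave a log2 fold change of 2.49 ± 0.92 (SE), with a 95% interval of 0.22 to 4.76 (limma adjusted p = 0.127). Low-Fli1+ against Fli1- cells gave 1.71, with an interval of -0.56 to 3.98 (limma adjusted p = 0.370). High-Fli1+ against Low-Fli1+ cells gave 0.78, with an interval of -1.49 to 3.05 (limma adjusted p = 0.648).

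The spread that the test used for cxcr4b came largely from Low-Fli1+ cells, whose 2 libraries lay 2.74 apart on the log2(FPKM + 1) scale, against 0.90 in High-Fli1+ and 0.45 in Fli1- cells. The same log2 fold change of 2.49 in High-Fli1+ against Fli1- cells had an SE of 0.43 and a limma adjusted p of 0.0256 without Low-Fli1+ replicate 1. Without Low-Fli1+ replicate 2 the SE was 0.45 (adjusted p = 0.0289), and with the High-Fli1+ and Fli1- libraries alone it was 0.45 (adjusted p = 0.0277). Between the reporter-positive populations the direction turned on 1 library, with a log2 fold change of -0.59 when Low-Fli1+ replicate 1 was left out (limma adjusted p = 0.521) and of 2.15 when Low-Fli1+ replicate 2 was (0.0787). In Low-Fli1+ against Fli1- cells the values were 3.08 without Low-Fli1+ replicate 1 and 0.34 without replicate 2, neither past the threshold (limma adjusted p = 0.066 and 0.717).

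Cxcr4a was the lowest of the 4 genes in 5 of 6 libraries, at 4.72 and 9.76 FPKM in High-Fli1+, 0 and 8.54 FPKM in Low-Fli1+ and 1.56 and 0.899 FPKM in Fli1- libraries. Low-Fli1+ replicate 2 lay between the High-Fli1+ libraries, and cxcr4a was listed at 0 in Low-Fli1+ replicate 1. The gap between the Low-Fli1+ libraries, 3.25 on the log2(FPKM + 1) scale, was wider than that of 94.8% of the genes tested, and that of cxcr4b wider than 91.1%. Of 5250 genes at 5 to 15 FPKM in Low-Fli1+ replicate 2, 745 (14.2%) were listed at 0 in replicate 1, and 9.42% the other way round. The same share was 1.93% and 2.09% in the High-Fli1+ libraries, and 0.654% and 0.412% in the Fli1- libraries, each set against its partner. High-Fli1+ against Fli1- cells gave a log2 fold change of 1.83 ± 1.1 (SE), with a 95% interval of -0.87 to 4.53 (limma adjusted p = 0.321). With Low-Fli1+ replicate 1 left out its SE was 0.47 and the limma adjusted p 0.0604. Low-Fli1+ against Fli1- cells gave 0.49 (adjusted p = 0.841), 2.11 without the first Low-Fli1+ library (replicate 1) and -1.14 without the other (replicate 2). High-Fli1+ against Low-Fli1+ cells gave 1.34 (limma adjusted p = 0.50), -0.28 when Low-Fli1+ replicate 1 was left out and 2.97 when replicate 2 was.

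Of the 4 genes, 2 were called higher and 0 lower in High-Fli1+ against Fli1- cells, where 5.79% of all 19237 genes tested were called higher and 11.5% lower (17.2% in either direction). All 4 had both High-Fli1+ libraries above both Fli1- libraries, as did 21.6% of all genes, whereas 44.2% had both below. Their median log2 fold change was 2.78, against -0.35 over all genes. In Low-Fli1+ against Fli1- cells 1 was called higher and 0 lower by limma, against 2.14% and 1.1% of all genes (3.23% in either direction). There 3 of the 4 had both Low-Fli1+ libraries above both Fli1- libraries, as did 18.9% of all genes, with 30.5% below, and the median was 1.97 against -0.21. In High-Fli1+ against Low-Fli1+ cells limma called 0 of the 4, against 1.22% of all genes called higher, 4.15% lower and 5.37% in either direction. Cxcl12a alone had an unadjusted p under 0.05 there (0.0320). In that comparison 2 of the 4 had both High-Fli1+ libraries above both Low-Fli1+ libraries, as did 18.3% of all genes, with 28.3% below, and the median was 0.81 against -0.13. Quantile normalization moved the median of all genes from -0.35 to 0.01 in High-Fli1+ against Fli1- cells, and median-ratio scaling moved it to -0.10 there and from -0.13 to 0.09 in High-Fli1+ against Low-Fli1+ cells. With these scalings 49.2% and 43.2% of the calls in High-Fli1+ against Fli1- cells were higher, against 33.6% as deposited. With median-ratio scaling 40.5% of those in High-Fli1+ against Low-Fli1+ cells were, against 22.7%. Each of the 4 genes kept its direction and its calls under both scalings. Under median-ratio scaling and quantile normalization in turn, the log2 fold changes in High-Fli1+ against Fli1- cells were 3.36 and 3.36 for cxcl12a, 3.60 and 3.84 for cxcl12b, 2.06 and 2.69 for cxcr4a, and 2.75 and 3.12 for cxcr4b. Any 2 of the comparisons share the libraries of 1 population, so they are not independent of each other.

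**Figure D2:**
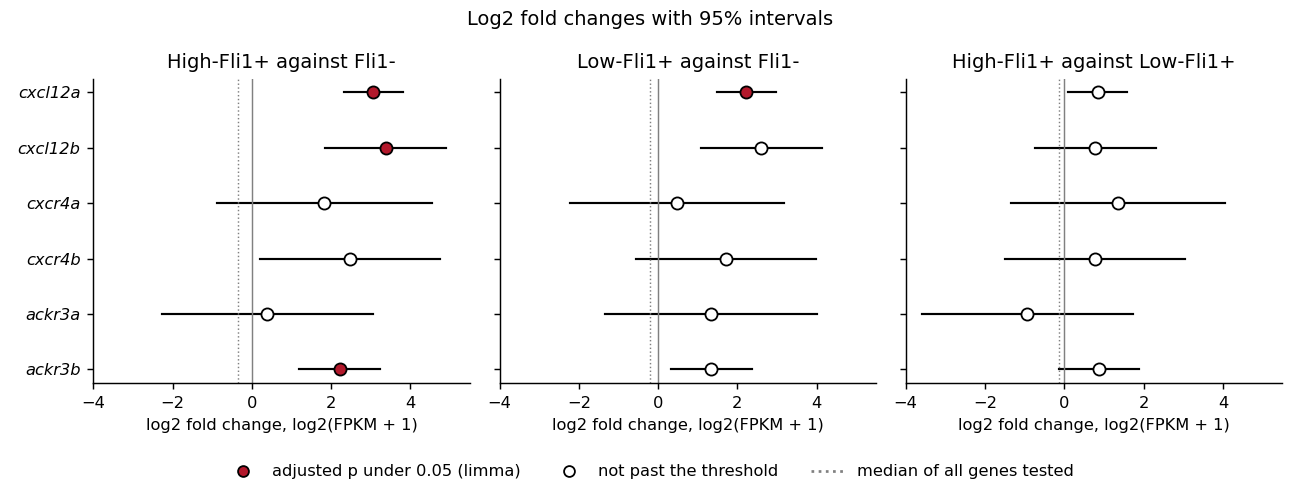
Log2 fold changes on the log2(FPKM + 1) scale (x axis) of the 4 genes and of ackr3a and ackr3b in each of the 3 comparisons; bars are 95% intervals from limma, filled points passed an adjusted p under 0.05, and the dotted line is the median of all 19237 genes tested. Cxcl12a, cxcl12b and ackr3b were called higher in High-Fli1+ against Fli1- cells, cxcl12a in Low-Fli1+ against Fli1- cells, and none between High-Fli1+ and Low-Fli1+ cells.

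FPKM is per length, so levels can also be set side by side between genes, although the transcript lengths used are not known. In all 6 libraries cxcl12a exceeded cxcl12b and cxcr4b exceeded cxcr4a. Cxcl12a made up 70.2% and 71.1% of the FPKM of the 2 ligands in High-Fli1+, 74.4% and 65.6% in Low-Fli1+, against 93.4% and 70.1% in Fli1- libraries. The populations overlapped in this share. Cxcr4a made up 27.5% and 28.8% of the FPKM of the 2 receptors in High-Fli1+, 0% and 24.3% in Low-Fli1+, against 35.6% and 33.3% in Fli1- libraries. Here the Fli1- libraries were the highest, although both receptors were at their lowest summed level in Fli1- replicate 2 (2.70 FPKM) and at 4.38 FPKM in replicate 1. As a log2 ratio with 1 FPKM added to each, cxcr4a over cxcr4b was -1.23 ± 0.008 in High-Fli1+ and -0.57 ± 0.012 in Fli1- cells (SD, n = 2 each). The ratio in Low-Fli1+ libraries was -2.05 and -1.54. No test of these ratios was made.

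The ligands together exceeded the receptors together in each library, but by uneven amounts. The 2 ligands summed to 84.2 and 65.9 FPKM in High-Fli1+, 34.8 and 49.4 FPKM in Low-Fli1+ and 4.94 and 8.95 FPKM in Fli1- libraries. The 2 receptors summed to 17.2 and 33.8 FPKM in High-Fli1+, 3.14 and 35.2 FPKM in Low-Fli1+ and 4.38 and 2.70 FPKM in Fli1- libraries. The ratio of ligand to receptor FPKM was 4.91 and 1.95 in High-Fli1+, 11 and 1.40 in Low-Fli1+, against 1.13 and 3.31 in Fli1- libraries, with the populations overlapping. Within a library, cxcl12a stood above 93.9% and 92.0% of the genes tested in High-Fli1+, 80.5% and 85.4% in Low-Fli1+, against 38.5% and 46.3% in Fli1- libraries. Cxcr4b stood above 68.5% and 83.6% in High-Fli1+, 34.6% and 81.9% in Low-Fli1+, against 28.4% and 20.0% in Fli1- libraries.

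Of the scavenger receptors of Cxcl12, ackr3b had the same order of populations as the ligands and ackr3a was low in 5 of 6 libraries. Ackr3b stood at 41.9 and 41.2 FPKM in High-Fli1+, 14.9 and 33.0 FPKM in Low-Fli1+ and 7.33 and 9.09 FPKM in Fli1- libraries, with no overlap between populations. It was above cxcr4b in all 6 libraries. It was 4.64-fold higher in High-Fli1+ than in Fli1- libraries (log2 fold change 2.22 ± 0.41 (SE), limma adjusted p = 0.0202). That call was lost without High-Fli1+ replicate 1 (2.20, limma adjusted p = 0.123), High-Fli1+ replicate 2 (2.23, 0.129), Fli1- replicate 1 (2.08, 0.181) or Fli1- replicate 2 (2.35, 0.141). Low-Fli1+ against Fli1- cells gave 1.34 (limma adjusted p = 0.142), and 1.89 (0.0606) when Low-Fli1+ replicate 1 was left out. High-Fli1+ against Low-Fli1+ cells gave 0.87 (limma adjusted p = 0.273), 0.32 (0.467) when Low-Fli1+ replicate 1 was left out, and 1.42 (0.0479), past the threshold, when Low-Fli1+ replicate 2 was. Ackr3a was at 0 and 1.47 FPKM in High-Fli1+, 8.05 and 0 FPKM in Low-Fli1+ and 0.198 and 0.195 FPKM in Fli1- libraries, so that its highest value came from Low-Fli1+ replicate 1, the library in which cxcr4a was listed at 0.

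The genes whose values ran most like those of each chemokine gene differed between ligands and receptors. Likeness was Pearson's r of log2(FPKM + 1) over the 6 libraries, which are 2 of each population and share their depth and composition, so it is a description with no test. An r over 0.95 was reached by 440 genes for cxcl12a, 240 for cxcl12b, 39 for cxcr4a and 24 for cxcr4b. For cxcl12a the nearest of 10062 genes were col6a4a, a collagen VI chain (r = 0.9996), pappab, a metalloproteinase (0.9991), sfrp2, a secreted Wnt modulator (0.9990), MRC2, a collagen receptor (0.9990), and fn1a, a fibronectin (0.9987). Sfrp2, for example, stood at 127 and 96.6 FPKM in High-Fli1+, 52.0 and 62.5 FPKM in Low-Fli1+ and 5.26 and 7.56 FPKM in Fli1- libraries. For cxcl12b they were il13ra1, a cytokine receptor (0.9971), pdgfrl (0.9965), fmoda, a collagen-binding proteoglycan (0.9956), lamb1b, a laminin chain (0.9947), and tmem204 (0.9945).

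The receptors' nearest genes, chosen by r over these same libraries, shared the low value in Low-Fli1+ replicate 1. For cxcr4a they were GCA (r = 0.9920), decr1, an enzyme of fatty acid oxidation (0.9884), rpa1, a DNA-binding protein of replication (0.9880), fkbp11 (0.9849) and hey2, a Notch target known from arteries (0.9842). Hey2 stood at 9.61 and 14.3 FPKM in High-Fli1+, 1.53 and 9.90 FPKM in Low-Fli1+ and 4.02 and 2.54 FPKM in Fli1- libraries. For cxcr4b they were lasp1, an actin-binding protein (0.9941), mcm6, a subunit of the replicative helicase (0.9914), wrn, a DNA helicase (0.9912), nck1a, an adaptor protein (0.9833), and dennd2c (0.9825). Among the 4 genes themselves, r was 0.974 between the ligands and 0.921 between the receptors. Between a ligand and a receptor it was 0.561 and 0.788 for cxcl12a with cxcr4a and cxcr4b, and 0.572 and 0.785 for cxcl12b.

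**Figure D3:**
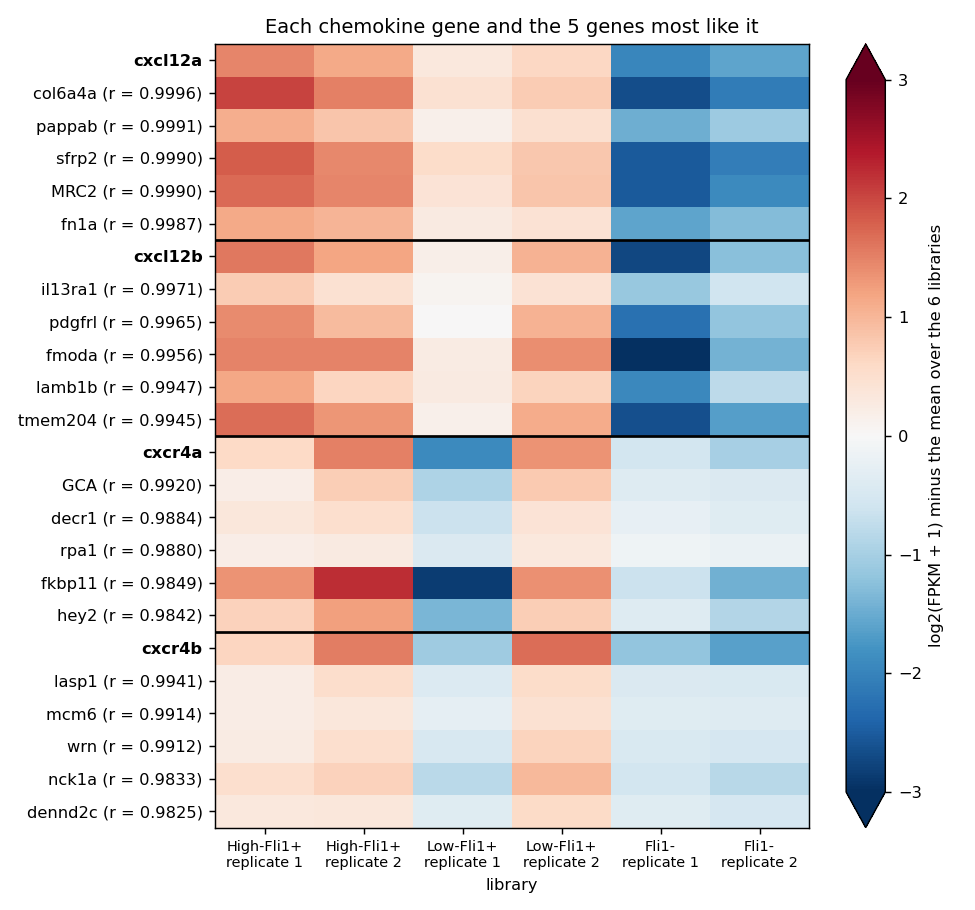
Level of each chemokine gene (bold) and of the 5 genes most like it (rows, with Pearson's r) in the 6 libraries (columns), as log2(FPKM + 1) minus the gene's mean over the libraries; red is above and blue below that mean. The cxcl12a and cxcl12b blocks are red in High-Fli1+ and blue in Fli1- libraries, while the cxcr4a and cxcr4b blocks are blue in Low-Fli1+ replicate 1 as well.

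Summed endothelial, mural and fibroblast, and cartilage and arch markers had the same order of populations as the 2 ligands. The 12 endothelial markers summed to 154.5 and 166.5 FPKM in High-Fli1+, 25.8 and 31.5 FPKM in Low-Fli1+ and 13.3 and 9.45 FPKM in Fli1- libraries. Of them 9 were called higher and 0 lower in High-Fli1+ against Fli1- cells, 3 higher and 0 lower in High-Fli1+ against Low-Fli1+ cells, and by limma 0 in Low-Fli1+ against Fli1- cells. None was listed at 0 in High-Fli1+ libraries. Egfl7 and clec14a were at 0 in Low-Fli1+ replicate 1, and cdh5, pecam1, esama and clec14a in replicate 2. Pecam1, egfl7 and clec14a were at 0 in Fli1- replicate 1, and pecam1, tie1, erg, flt1 and clec14a in replicate 2. Flt4 made up 6.81 and 11.9 FPKM of the Low-Fli1+ sums, against 1.22 and 0.492 FPKM in Fli1- libraries. Cdh5 and esama averaged lower in Low-Fli1+ than in Fli1- cells (1.40 against 2.54 FPKM and 1.87 against 3.85 FPKM). The median log2 fold change of the 12 there was 0.92, against -0.21 over all genes.

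The 10 mural and fibroblast markers summed to 1249 and 1080 FPKM in High-Fli1+, 769 and 931 FPKM in Low-Fli1+ and 74.0 and 141 FPKM in Fli1- libraries. In High-Fli1+ against Fli1- cells 8 were called higher and 1, tagln, lower, in Low-Fli1+ against Fli1- cells 7 higher and 0 lower, and between High-Fli1+ and Low-Fli1+ cells 0 by limma. Tagln was at 0 in each High-Fli1+ and Low-Fli1+ library, and none of the 10 was at 0 in Fli1- libraries. The 10 cartilage and arch mesenchyme markers summed to 12741 and 10540.1 FPKM in High-Fli1+, 1245 and 1333 FPKM in Low-Fli1+ and 152 and 193 FPKM in Fli1- libraries. The sums of both the mural and fibroblast list and the cartilage and arch list had the same order over the 6 libraries as cxcl12a. Of the cartilage and arch markers 8 were called higher and 0 lower in each of the 2 comparisons against Fli1- cells, and 6 higher and 0 lower in High-Fli1+ against Low-Fli1+ cells. Dlx2a and barx1 were at 0 in Low-Fli1+ replicate 1, and no other cartilage or arch marker was at 0 in any library. Both averaged lower in Low-Fli1+ than in Fli1- cells, dlx2a at 3.34 against 9.02 FPKM and barx1 at 2.96 against 3.82 FPKM.

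Neutrophil and macrophage markers, 12 genes, summed to 164 and 209.5 FPKM in High-Fli1+, 726 and 1109 FPKM in Low-Fli1+ and 21.4 and 24.7 FPKM in Fli1- libraries. Of these 5 were called higher and 0 lower in High-Fli1+ against Fli1- cells, 8 higher in Low-Fli1+ against Fli1- cells, and 6 lower in High-Fli1+ against Low-Fli1+ cells. Marco was at 0 in each library but Low-Fli1+ replicate 2, and no other was at 0. The macrophage markers mpeg1.1 and csf1ra went the other way in High-Fli1+ against Fli1- cells, without being called. Mpeg1.1 stood at 0.670 and 0.412 FPKM in High-Fli1+ and 3.26 and 3.50 FPKM in Fli1- libraries (log2 fold change -1.51). Csf1ra stood at 1.61 and 1.72 FPKM in High-Fli1+ and 2.33 and 3.06 FPKM in Fli1- libraries (-0.47). Low-Fli1+ replicate 2 had both the highest leukocyte sum and the highest cxcr4b level (26.7 FPKM), and Low-Fli1+ replicate 1 had the second highest sum beside a cxcr4b level of 3.14 FPKM. The part of endothelial, mural, cartilage or leukocyte cells in the chemokine results was not tested.

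Of cells that these pairs are known to guide, germ cells left almost no marker transcripts. All 5 germ cell markers were at 0 in both High-Fli1+ and both Low-Fli1+ libraries, and dnd1 alone was above 0 in Fli1- libraries, at 0.428 and 0.269 FPKM. The 6 lateral line and otic markers summed to 99.8 and 80.2 FPKM in High-Fli1+, 69.5 and 58.0 FPKM in Low-Fli1+ and 72.4 and 100.4 FPKM in Fli1- libraries, with the populations overlapping. Of the 4 tested, eya1 alone was called, higher in High-Fli1+ against Fli1- cells (log2 fold change 1.81). Six1b and fgf10a had log2 fold changes of 0.50 and 1.89 there. Cldnb went the other way, at 11.3 and 0 FPKM in High-Fli1+ and 49.4 and 73.3 FPKM in Fli1- libraries (log2 fold change -4.125, limma adjusted p = 0.0594). Tekt3 was above 0 in Fli1- libraries alone, at 1.22 and 1.39 FPKM. Red cell markers, 10 genes, summed to 84.3 and 73.6 FPKM in High-Fli1+, 3246 and 4994 FPKM in Low-Fli1+ and 41214.5 and 31951 FPKM in Fli1- libraries, the reverse of the ligands. Neuronal markers, 10 genes, summed to 180 and 82.2 FPKM in High-Fli1+, 1171 and 848 FPKM in Low-Fli1+ and 2165 and 1925 FPKM in Fli1- libraries. All 10 of each of these lists were called lower in High-Fli1+ against Fli1- cells, and 3 red cell and 0 neuronal markers in Low-Fli1+ against Fli1- cells. Against Low-Fli1+ cells, 8 red cell and 7 neuronal markers were called lower in High-Fli1+ cells.

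The sums of the remaining lists showed no such order. The 8 muscle markers summed to 52.1 and 50 FPKM in High-Fli1+, 32.6 and 140.5 FPKM in Low-Fli1+ and 38.4 and 64.1 FPKM in Fli1- libraries, and limma called 0 of them in any comparison. Mylpfa, tnnt3a, ckma and atp2a1 were at 0 in Low-Fli1+ replicate 1 alone. The 8 epithelial markers summed to 1175 and 969 FPKM in High-Fli1+, 441 and 399 FPKM in Low-Fli1+ and 640 and 991 FPKM in Fli1- libraries. Most of the High-Fli1+ sums came from krt8, at 923 and 885 FPKM in High-Fli1+, 308 and 357 FPKM in Low-Fli1+ and 83.3 and 109 FPKM in Fli1- libraries. Krt8 was called higher in High-Fli1+ against Fli1- cells, whereas cldni, epcam, cdh1 and cldn7b were called lower. The median log2 fold change of the 8 epithelial markers there was -2.60. Of the 8 epithelial markers 1 was called higher and 4 lower in High-Fli1+ against Fli1- cells, 1 higher and 2 lower in Low-Fli1+ against Fli1- cells, and 1 higher in High-Fli1+ against Low-Fli1+ cells.

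**Figure D4:**
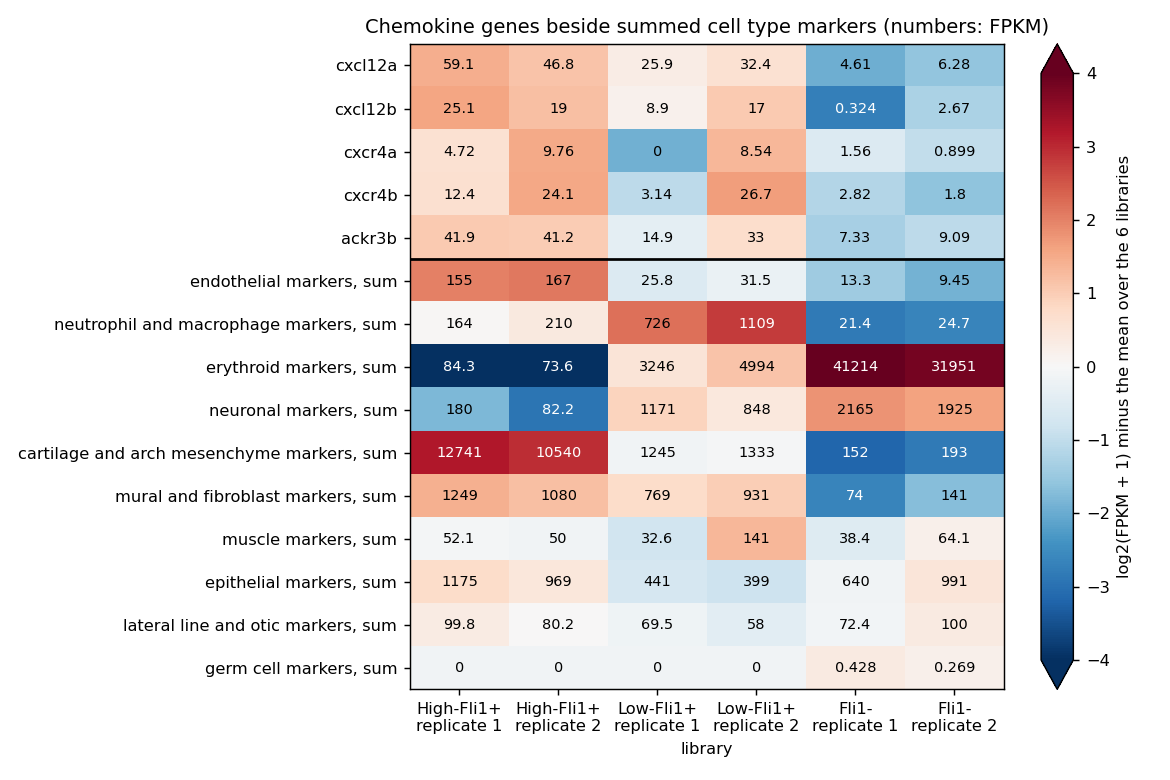
FPKM (numbers) of 5 chemokine pathway genes, above the black line, and summed FPKM of each list of cell type markers, below it, in the 6 libraries (columns); colours are log2(FPKM + 1) minus the row's mean over the libraries. The sums of the mural and fibroblast markers and of the cartilage and arch mesenchyme markers share the order of cxcl12a over the 6 libraries. The leukocyte sum is highest in Low-Fli1+, at 726 and 1109 FPKM.

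Genes that transmit the Cxcr4 signal were called in both directions in High-Fli1+ against Fli1- cells. Of 14 signal transducers tested, with a median log2 fold change of 0.17, 1 was called higher and 1 lower in High-Fli1+ against Fli1- cells. Of all genes, 17.2% were called there, and 14 genes are too few to set the list apart from that share. The higher one was gnai2a, an inhibitory G protein alpha subunit through which chemokine receptors act, at 92.97 and 73 FPKM in High-Fli1+ and 43.8 and 42.3 FPKM in Fli1- libraries (log2 fold change 0.92, limma adjusted p = 0.0430). That call was lost without either High-Fli1+ library (0.75, adjusted p = 0.117, without replicate 1 and 1.09, adjusted p = 0.0757, without replicate 2) and without either Fli1- library (0.95, adjusted p = 0.157, without replicate 1 and 0.90, adjusted p = 0.154, without replicate 2). The lower one was gng2, a G protein gamma subunit, at 9.76 and 8.15 FPKM in High-Fli1+, 28.3 and 35.2 FPKM in Low-Fli1+ and 111 and 78.9 FPKM in Fli1- libraries. Its log2 fold change was -3.26 in High-Fli1+ against Fli1- cells (limma adjusted p = 0.00337), which fell short without High-Fli1+ replicate 2 (-3.14, adjusted p = 0.0507). It was -1.72 in High-Fli1+ against Low-Fli1+ cells (limma adjusted p = 0.0352), a call lost whichever library was left out (adjusted p between 0.0529 and 0.163), with median-ratio scaling (-1.38, adjusted p = 0.0537) and with quantile normalization (-1.40, 0.0604).

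In Low-Fli1+ against Fli1- cells 2 of the 14 transducers were called higher and 0 lower, where 2.14% of all genes were called higher and 1.1% lower. They were rac2, a signalling protein of blood cells, at 35.9 and 23.5 FPKM in Low-Fli1+ and 4.94 and 7.12 FPKM in Fli1- libraries (log2 fold change 2.11, limma adjusted p = 0.0433), and pik3r5, a regulatory subunit of the PI3-kinase downstream of G proteins, at 10.3 and 9.19 FPKM in Low-Fli1+ and 0.238 and 0.146 FPKM in Fli1- libraries (3.17, adjusted p = 0.0385). Both calls held without Low-Fli1+ replicate 2 and were lost without any other single library, with adjusted p between 0.0719 and 0.174 for rac2 and between 0.0619 and 0.160 for pik3r5. With only the Low-Fli1+ and Fli1- libraries both were lost as well (adjusted p = 0.106 and 0.104). Of 5 receptor kinases and arrestins tested, which switch chemokine receptors off, limma called 0 in any comparison. The share of all genes called was 17.2% in High-Fli1+ against Fli1- cells, 3.23% in Low-Fli1+ against Fli1- cells and 5.37% in High-Fli1+ against Low-Fli1+ cells. At these shares 5 genes are too few for 0 calls to set the list apart. Their median log2 fold changes in the same comparisons were -0.71, 0.12 and -0.96. Of 8 other ligands and partners of Cxcr4 or Ackr3 tested, hmgb1b, a chromatin protein that can act outside the cell, was called lower in High-Fli1+ against Fli1- cells (log2 fold change -1.19, limma adjusted p = 0.0411), a call lost whichever library was left out (-1.48 to -0.89, adjusted p between 0.0521 and 0.219), with median-ratio scaling (-0.87, 0.122) and with no filter on low values (0.052). None of the other 7 was called in any comparison.

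Among the remaining chemokine genes, 4 CXC genes and 7 CC and other genes passed the filter on low values. Cxcl18b, a CXC chemokine of inflamed tissue in fish, stood at 32.3 and 72.1 FPKM in High-Fli1+, 27.3 and 27.6 FPKM in Low-Fli1+ and 7.41 and 16.2 FPKM in Fli1- libraries. Its log2 fold change of 2.04 in High-Fli1+ against Fli1- cells passed (limma adjusted p = 0.0443), and the call was lost whichever library was left out (1.47 to 2.61, adjusted p between 0.071 and 0.281), with a pseudocount of 0.1 (2.13, 0.0553) and with no filter on low values (0.0583). Ccr9a, a receptor of lymphoid cells, had its highest values in Low-Fli1+, unlike the Cxcl12 ligands, at 18.7 and 11.3 FPKM in High-Fli1+, 53.3 and 30.8 FPKM in Low-Fli1+ and 0.980 and 1.24 FPKM in Fli1- libraries. It was called higher in High-Fli1+ against Fli1- cells (log2 fold change 2.89, limma adjusted p = 0.0116) and in Low-Fli1+ against Fli1- cells (4.30, adjusted p = 0.0213). The first call was lost without either High-Fli1+ or either Fli1- library (adjusted p between 0.0688 and 0.121), and the second held only without Low-Fli1+ replicate 2 (adjusted p = 0.0467) among the 6 refits. Its duplicate ccr9b, at 0 and 0.353 FPKM in High-Fli1+, 8.71 and 5.65 FPKM in Low-Fli1+ and 0 in both Fli1- libraries, was called higher in Low-Fli1+ than in Fli1- cells (limma adjusted p = 0.0395) and lower in High-Fli1+ than in Low-Fli1+ cells (adjusted p = 0.0371). Both ccr9b calls held without Low-Fli1+ replicate 2 (adjusted p = 0.0467 and 0.0339) and were lost without any other single library (0.0549 to 0.139) and with a pseudocount of 0.1 (0.0515 and 0.0675). The ccr9b call in High-Fli1+ against Low-Fli1+ cells was also lost with quantile normalization (-2.47, limma adjusted p = 0.0526). When the compared populations were fitted alone, the calls on cxcl18b (adjusted p = 0.0686), ccr9a in Low-Fli1+ against Fli1- cells (0.104), ccr9b (0.104 and 0.154), hmgb1b (0.0541) and gng2 in High-Fli1+ against Low-Fli1+ cells (0.143) were lost too. With all 6 libraries, no other gene of these chemokine lists was called in any comparison.

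**Figure D5:**
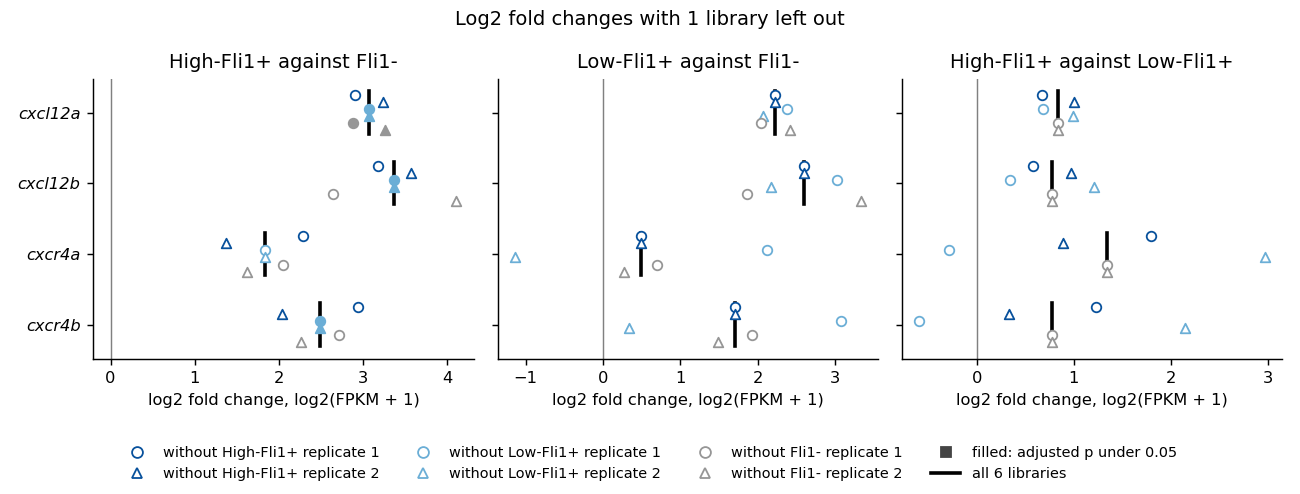
Log2 fold changes on the log2(FPKM + 1) scale (x axis, with its own range in each panel) of the 4 genes with 1 library left out at a time, in each of the 3 comparisons; colour and shape give the library left out, filled points passed an adjusted p under 0.05, and black bars are the values from all 6 libraries. The cxcl12a points stay within 2.88 to 3.26 in High-Fli1+ against Fli1- cells, while cxcr4a and cxcr4b change direction between High-Fli1+ and Low-Fli1+ cells without Low-Fli1+ replicate 1.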

How the data were processed

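Per the labels, 100 ng of total RNA per library was enriched for poly-A RNA and copied to double-stranded cDNA. The authors deposited 1 table of FPKM values (fragments scaled to transcript length and library total) per gene and library, per the file headers; the aligner, quantifier, genome build and annotation are not given in the sources used here. Of 29144 rows, 18 named by a calendar date, as spreadsheets make from gene names, were left out. Genes with a mean of at least 0.5 FPKM over the 6 libraries were tested, 19237 of 29126. Values were taken as log2(FPKM + 1), and limma 3.58.1 (R 4.3.3) fitted 1 mean per population over the 6 libraries together, with a variance trend (3 residual and 2.89 prior degrees of freedom). P-values were two-sided, Benjamini-Hochberg adjusted over all genes tested, and called under 0.05. FPKM do not show the number of reads, so counting error is not given. The procedure was tested on simulated data.

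The 4 chemokine genes, the lists of related genes and of cell type markers, and the tests were chosen with earlier results of these data known. Of 64 related genes named in the lists, 56 were found (grk3 as adrbk2) and 40 tested; all 91 markers were found. Genes named are the 4 chemokine genes, the scavenger receptors, up to 4 called members of each other list by size of fold change, and for each chemokine gene the 5 genes with the highest Pearson r over the 6 libraries among those at 5 FPKM or more on average with no provisional name. The 4 symbols were found in a RefSeq gene table (assembly GRCz12tu), used for names only. Alternatives were pseudocounts of 0.1 and 5, no filter, quantile normalization, median-ratio scaling, a fit of the compared populations alone, a replicate block, and leaving out each library.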

Additional observations from a re-analysis of the deposited data

How the results depend on the processing

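Over the 12 results for the 4 genes (4 genes in 3 comparisons), 81 of 84 values from the alternatives that leave out no single library kept their direction and their side of the threshold. The exceptions were cxcl12a in Low-Fli1+ against Fli1- cells with only the populations compared (2.23, limma adjusted p = 0.104), cxcr4b in High-Fli1+ against Fli1- cells with only the populations compared (2.49, adjusted p = 0.0277), and cxcr4a in Low-Fli1+ against Fli1- cells, which reversed to -0.47 with a pseudocount of 0.1 (adjusted p = 0.927).

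With 1 library left out, 55 of 72 values kept both. A population left with 1 library is assumed to vary like the others. In High-Fli1+ against Fli1- cells the log2 fold changes ranged from 2.88 to 3.26 for cxcl12a, 2.64 to 4.11 for cxcl12b and 2.04 to 2.94 for cxcr4b. In Low-Fli1+ against Fli1- cells they ranged from 2.04 to 2.42 for cxcl12a and from -1.14 (without Low-Fli1+ replicate 2) to 2.11 for cxcr4a. In High-Fli1+ against Low-Fli1+ cells they ranged from -0.28 to 2.97 for cxcr4a and from -0.59 to 2.15 for cxcr4b, both negative without Low-Fli1+ replicate 1. The number of genes called by limma ranged from 201 to 4906 in High-Fli1+ against Fli1- cells, from 0 to 797 in Low-Fli1+ against Fli1- cells and from 0 to 2262 in High-Fli1+ against Low-Fli1+ cells. With only the populations compared it was 0 in Low-Fli1+ against Fli1- cells (3875 genes at an unadjusted p under 0.05) and 0 in High-Fli1+ against Low-Fli1+ cells (3686). Without a filter it was 590 in High-Fli1+ against Low-Fli1+ cells, against 1033. Counts of list genes without Low-Fli1+ replicate 1 were chosen after seeing the data. The cause of these changes was not tested.

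The log2 ratios between duplicates moved with the pseudocount. Cxcl12a over cxcl12b was 1.101 in High-Fli1+ cells with a pseudocount of 5, and in Fli1- cells 2.34 with 0.1 and 0.70 with 5. Cxcr4a over cxcr4b with 0.1 and with 5 was -1.34 and -0.91 in High-Fli1+, -3.32 and -0.96 in Low-Fli1+, against -0.87 and -0.23 in Fli1- cells.

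The labels do not say that equal replicate numbers pair libraries, and the deviations of replicate 1 correlated at 0.0806 to 0.121 between populations. With a replicate block, limma called 335 genes in Low-Fli1+ against Fli1- cells, against 622, and no call on the 4 genes changed (cxcl12a adjusted p = 0.00621 in High-Fli1+ and 0.0469 in Low-Fli1+ against Fli1- cells; cxcl12b 0.0198 in High-Fli1+). The block ended the calls on gnai2a (limma adjusted p = 0.051), rac2 (0.0689) and pik3r5 (0.0672). It also ended those on ccr9b in Low-Fli1+ against Fli1- cells (0.0741) and in High-Fli1+ against Low-Fli1+ cells (0.0625).

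With 2 libraries per population and unknown depth, small differences were not detectable. Within Low-Fli1+ cells the libraries lay 3.25 apart for cxcr4a and 2.74 for cxcr4b on the log2(FPKM + 1) scale, so the order of High-Fli1+ and Low-Fli1+ cells for these genes was not determined.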
